A study of Homo sapiens with 4 samples.

Results

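SMAD1 peaks were examined around the genes of 4 GATA transcription factors, GATA2, GATA3, GATA4 and GATA6. The peaks were chosen by position alone, as every peak of either condition with at least 1 base within 100 kb of the gene body in the human genome build hg19, and 11 of the 12885 peaks in the 2 lists met this rule. Chromatin immunoprecipitation and sequencing (ChIP-seq) had been carried out with a SMAD1 antibody in human embryonic stem cells (hESCs) of the established line H1, kept in mTeSR1 medium on Matrigel. One group of cells was untreated (0 min) and the other received BMP4 at 50 ng/ml for 60 min, with no other difference given. Each condition had 1 immunoprecipitated and 1 input sample in the labels, and 1 peak list, since replicates had been merged before peaks were called. Hence no value below has an error between replicates, and no difference between the conditions could be tested. The cell type could not be checked against marker genes, because the lists hold peak positions and no expression. The lists are many times longer than the peak numbers stated in the study, and the relation between them is not given in the sources used here. The lists may thus not come from the run that the methods describe, and whether any peak named below is among those the study counted is not known.

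BMP4 binds receptor kinases at the cell surface, which phosphorylate SMAD1 and its close relatives. These then join SMAD4, enter the nucleus and bind DNA, often at short GC-rich sites or at the SMAD binding element, whose core reads GTCT. GATA factors are zinc finger proteins that bind the sequence GATA. GATA3 and GATA2 act in trophectoderm and in blood cells, whereas GATA4 and GATA6 act in heart and endoderm.

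The peaks near GATA genes lay almost entirely in the BMP4 list. Of the 11 peaks, 10 came from the BMP4 list of 7682 peaks and 1 from the untreated list of 5203. GATA3 had 5 BMP4 peaks and no untreated peak, and GATA2 had 3 BMP4 peaks and 1 untreated peak. GATA4 and GATA6 had 1 BMP4 peak each and no untreated peak. None of the 11 peaks shared even 1 bp with a peak called in the other condition. Among all peaks, an overlap was found for 12.7% in the BMP4 list and 18.3% in the untreated list, and the exact binomial 95% interval for 0 of 10 BMP4 peaks reached up to 30.8%, so that the missing partners alone did not set these peaks apart from the list. This interval treats the 10 peaks as independent, although 5 of them share the GATA3 locus. A peak missing from a list means that no score of 50 or more was given there, and the depth of each library is unknown.

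**Figure D1:**
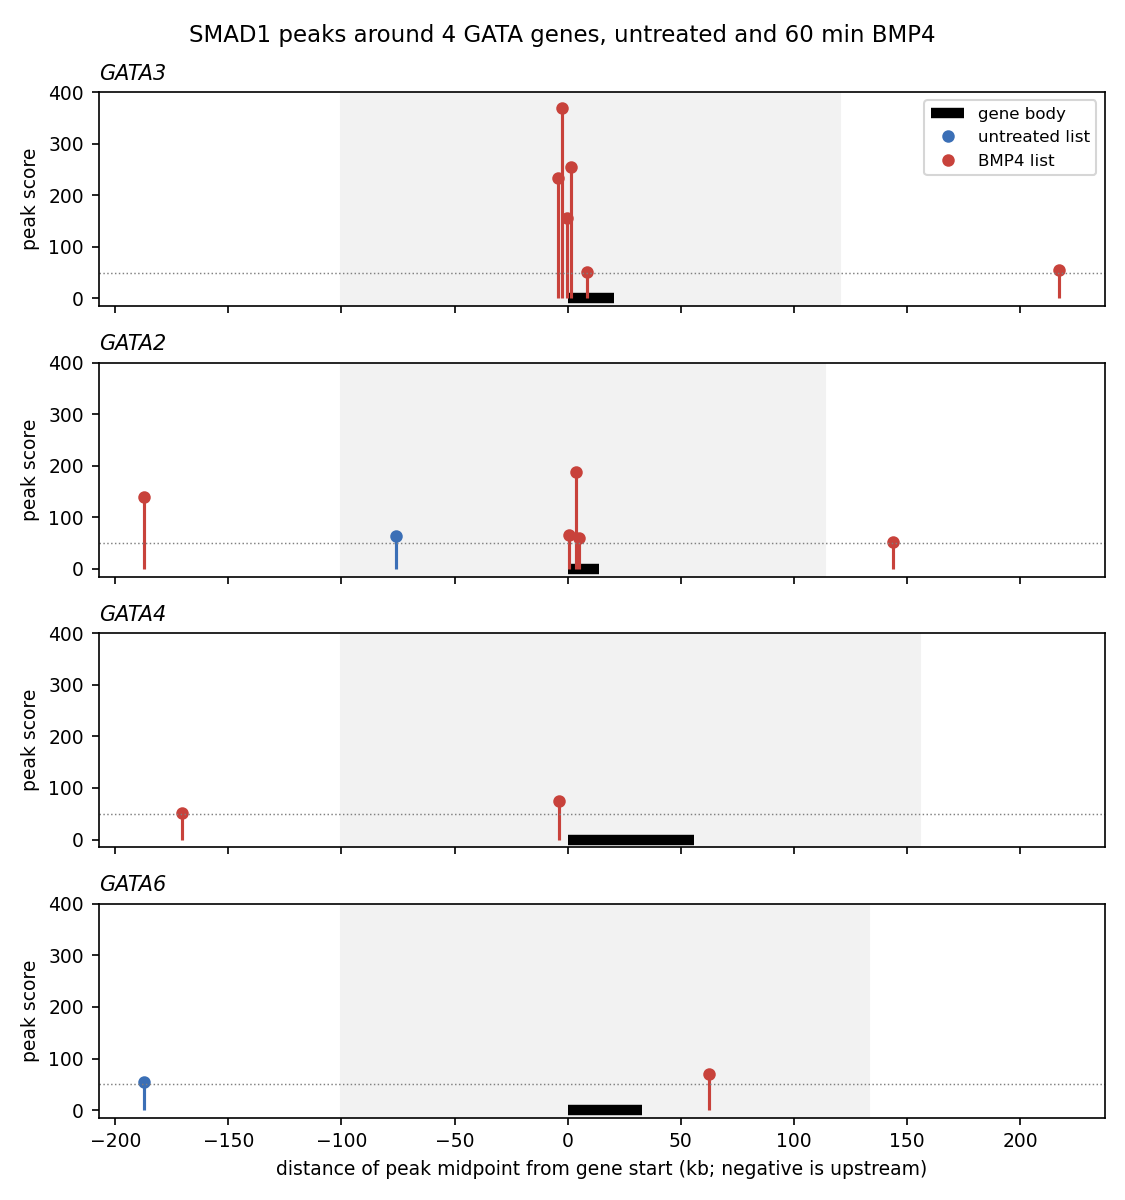
Scores of SMAD1 peaks (vertical axis) against the distance of the peak midpoint from the gene start in kb (horizontal axis) at GATA3, GATA2, GATA4 and GATA6, for untreated cells (blue) and cells given BMP4 for 60 min (red). Grey shading marks the gene body (black bar) with 100 kb on either side and the dotted line the lowest score in the lists, 50. BMP4 peaks gather at the starts of GATA3 and GATA2, and the only untreated peak inside a shaded window lies 75.5 kb from GATA2.

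The sequences before 4 of the 9 RefSeq start sites of GATA2, GATA3 and GATA6 are given here, namely the main start of each gene and the inner start of GATA2, which lies between BMP4 peaks. Each shows the 250 bases before the start, read 5′ to 3′ along the gene, in build GRCh38.p14. Capitals mark GTCT (or AGAC on the other strand), GGCGCC, which is the same on both strands, and GGAGCC (or GGCTCC on the other strand). No marked matches overlap each other. The first lies before the main GATA3 start (chr10:8054438-8054687, plus strand). The second lies before the first GATA2 start (chr3:128493202-128493451, minus strand) and the third before an inner GATA2 start, 4671 bases further along the gene (chr3:128488531-128488780, minus strand). The fourth lies before the GATA6 start (chr18:22169339-22169588, plus strand).
GATA3 start: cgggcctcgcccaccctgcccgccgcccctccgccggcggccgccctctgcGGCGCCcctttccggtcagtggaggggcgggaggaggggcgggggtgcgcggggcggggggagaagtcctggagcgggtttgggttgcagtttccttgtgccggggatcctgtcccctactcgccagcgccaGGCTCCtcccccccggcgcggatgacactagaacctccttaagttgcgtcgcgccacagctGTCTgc
GATA2 first start: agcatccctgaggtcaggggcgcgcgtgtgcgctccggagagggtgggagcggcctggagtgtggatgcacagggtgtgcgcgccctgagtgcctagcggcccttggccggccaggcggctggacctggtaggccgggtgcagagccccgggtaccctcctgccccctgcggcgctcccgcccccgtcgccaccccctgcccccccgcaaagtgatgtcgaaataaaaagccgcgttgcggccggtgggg
GATA2 inner start: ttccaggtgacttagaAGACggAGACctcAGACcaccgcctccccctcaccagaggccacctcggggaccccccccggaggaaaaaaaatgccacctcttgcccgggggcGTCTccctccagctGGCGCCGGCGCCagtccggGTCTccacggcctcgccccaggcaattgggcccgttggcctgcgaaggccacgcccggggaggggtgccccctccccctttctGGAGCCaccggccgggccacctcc
GATA6 start: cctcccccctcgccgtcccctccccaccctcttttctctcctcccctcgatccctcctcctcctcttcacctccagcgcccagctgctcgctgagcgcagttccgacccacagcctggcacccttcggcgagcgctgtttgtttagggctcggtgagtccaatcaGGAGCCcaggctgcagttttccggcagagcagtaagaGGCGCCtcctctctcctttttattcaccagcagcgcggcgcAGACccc

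GATA3, a regulator of trophectoderm and T cells, had the most peaks and the highest scores. Its gene body spans chr10:8096667-8117164 (hg19, plus strand). The 5 BMP4 peaks had scores of 234, 369, 156, 254 and 50.1 in order along the gene. The score is that of the peak caller and was read as −log10 p multiplied by 10, so that the lowest score of 50 stands for a p-value of 1e-05. The first 4 peaks were well above this minimum and the last was barely over it.

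The first GATA3 peak (chr10:8091852-8093058) was 1207 bp wide and lay 4815 to 3609 bp upstream of the gene start. The second (chr10:8093338-8094664) had the highest score of all peaks near GATA genes, with a width of 1327 bp, 3329 to 2003 bp upstream. It was followed by a peak over the gene start itself (chr10:8096104-8097046), which was 943 bp wide and ran from 563 bp before the start to 379 bp after it. The fourth peak (chr10:8097608-8098581) was 974 bp wide and lay 941 to 1914 bp past the start. The fifth (chr10:8104843-8105420) was 578 bp wide and lay 8176 to 8753 bp past the start. Thus 2 of the peaks were upstream, 1 covered the start and 2 were inside the gene.

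The first 4 GATA3 peaks formed a tight group. The gaps between them were 279, 1439 and 561 bp, and together they spanned 6730 bp, whereas the last peak followed after a gap of 6261 bp. When peaks were joined into runs across gaps of up to 3 kb, the BMP4 list held 19 runs of at least 4 peaks, and these runs took up 1.24% of its peaks. In 4 of the runs no peak had an untreated partner, which together held 0.221% of all BMP4 peaks. The GATA3 group was 1 of these 4 runs and had the third highest top score among them. The untreated list held 34 runs of at least 4 peaks, with 3.54% of its peaks, and also 4 in which no peak had a BMP4 partner, with 0.346%. Such runs as a class were thus no rarer in untreated cells, and none of the untreated ones lay near GATA3. The gap of 3 kb was chosen after the peaks had been seen, and with gaps of up to 5 kb there were 6 such runs without a partner in the BMP4 list and 8 in the untreated list.

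The strong GATA3 peaks also stood high in the BMP4 list as a whole. They ranked 445, 558, 605 and 878 of 7682, and among the 6708 BMP4 peaks without an untreated partner they ranked 63, 131, 164 and 376. The fifth peak ranked 7634, and 0.625% of the list had a lower score. When the BMP4 list was shortened to its 5203 highest scores, to match the length of the untreated list, the lowest score kept was 57.1 and this peak dropped out.

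No untreated peak lay near GATA3. The closest was 262 kb from the gene body and had a score of 58.4. Over the whole of chromosome 10 there were 209 untreated and 357 BMP4 peaks. As a background, the genome was cut into consecutive tiles of the length of the GATA3 window, 220 kb. At least 5 BMP4 peaks were found in 89 of 14031 tiles (0.634%), and at least 1 untreated peak in 24.7%. Only 7 tiles (0.0499%) held at least 5 BMP4 peaks and no untreated peak. In the reverse direction, at least 5 untreated peaks were found in 99 tiles (0.706%), 5 of them (0.0356%) without a BMP4 peak. These shares cover gene-poor sequence as well and describe the lists, with no test.

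**Figure D2:**
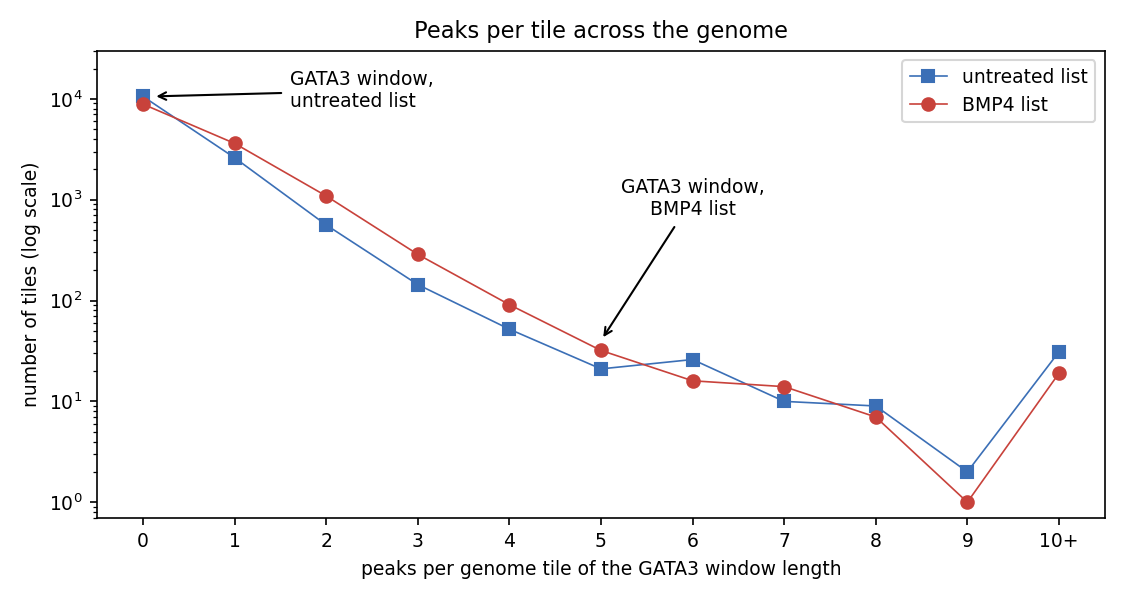
Number of genome tiles of 220 kb (vertical axis, log scale) against the number of peaks per tile (horizontal axis, 10 or more in 1 class), for the untreated list (blue squares) and the BMP4 list (red circles). Arrows mark the classes of the GATA3 window, with 0 untreated and 5 BMP4 peaks, where 10569 and 32 tiles lay.

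The place of the peaks within the gene was read from GRCh38, because no annotation of hg19 was used here. Positions were not converted. Only distances from the gene start were set beside those in the GENCODE v44 main transcript. Its span differed from the hg19 gene body by 13 bases at GATA3, 9 at GATA2, 8 at GATA4 and -148 at GATA6. The shift of the gene start itself between the builds was not measured, so the precision of the placement is not known. By distance, the peak over the GATA3 start covered all 204 bases of exon 1. The next peak held the last 268 bases of exon 2, with the point where the coding sequence begins (968 bases past the start), and ran on into intron 2. The weak last peak fell in intron 3. Both upstream peaks overlapped GATA3-AS1, a noncoding RNA gene on the opposite strand, by 630 and 1327 bases. ChIP-seq peaks carry no strand, and these upstream peaks thus lie by both genes. RefSeq also lists further starts of GATA3 upstream of the main one. One of these lay 19 bases before the first peak, and another between the first and second peaks, 157 and 123 bases from them. All 4 strong peaks were therefore within 1 kb of a RefSeq start, the fourth at 941 bases, whereas the weak peak in intron 3 was not. RefSeq lists several starts for this gene, and the share of all BMP4 peaks this close to a start was not computed.

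**Figure D3:**
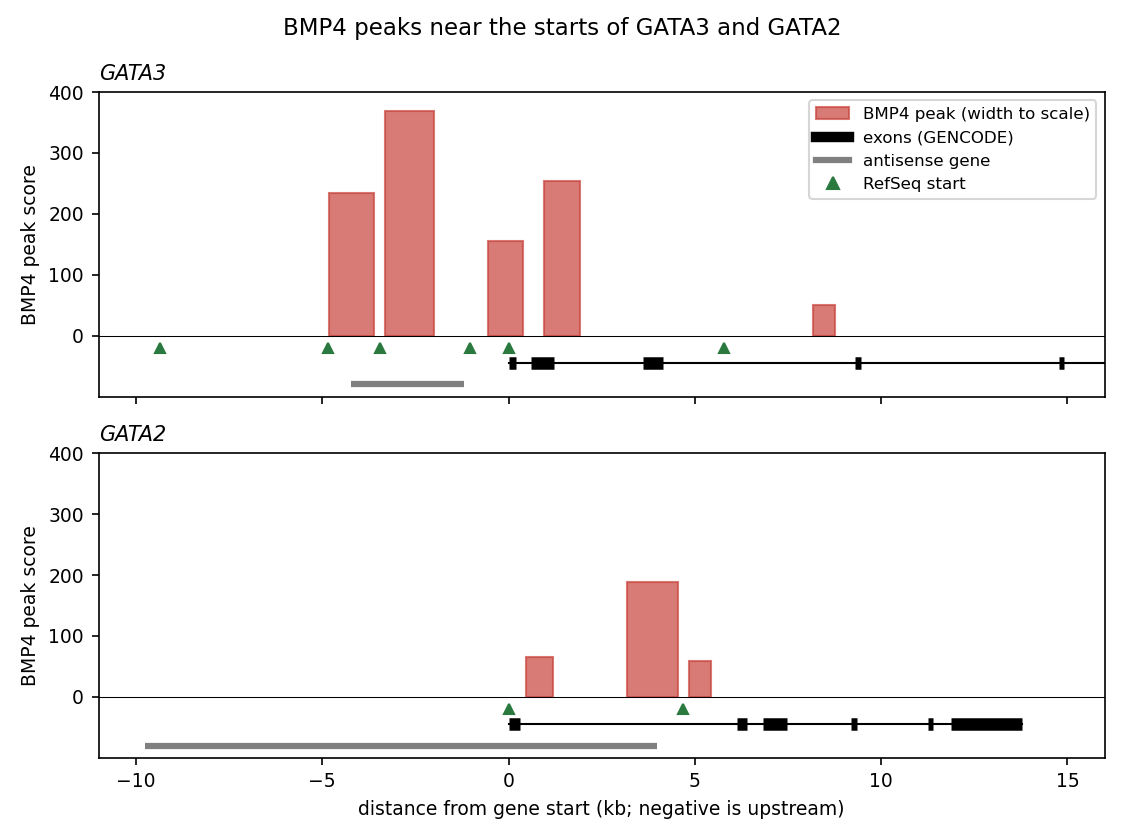
BMP4 peaks at GATA3 and GATA2 as red boxes, with their width to scale along the distance from the gene start in kb (horizontal axis) and their score as height (vertical axis). Below zero are the exons of the GENCODE transcript (black), the antisense gene (grey) and RefSeq starts (green triangles), all from GRCh38 and placed by distance. At GATA3 4 peaks lie on both sides of the main start, and at GATA2 the highest peak ends shortly before the inner start.

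The 250 bases before the main GATA3 start, shown above, lay wholly under the third peak by distance. They held GTCT once, GGCGCC once and GGAGCC once. Of 35116 RefSeq start windows of this length, 77.5% held GTCT on either strand, 16.4% GGCGCC and 30.6% GGAGCC. The core of the GATA site, GATAA or TTATC, was in 20.4% of the windows and not in this one. Among the other GATA3 starts, the window before that 1047 bases upstream held GGCGCC 2 times and lay under no peak. The window before that 3452 bases upstream held no GGCGCC and had 94 bases under the first peak. GGCGCC and peaks thus did not go together at these 2 starts. For GTCT the order was the reverse, with 2 matches in the window 3452 bases upstream and 0 in that 1047 bases upstream. By distance, 1 of these 2 matches lay inside the first peak. GTCT was also found once in the window 4834 bases upstream, which lay under no peak, as in the covered window of the main start. The windows before the starts 9355 bases upstream and 5769 bases downstream also held GTCT once each and lay under no peak. The former held GGCGCC and GGAGCC once each as well, and the latter the core of the GATA site once. These matches are descriptions of the sequence, not binding sites.

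GATA2, which acts in blood stem cells and trophectoderm, was next in number of peaks. Its gene body spans chr3:128198265-128212030 (hg19, minus strand), so the gene starts at the higher coordinate. The 3 BMP4 peaks had scores of 65.6, 188 and 59.0 in order along the gene, and all lay inside the gene body. The middle peak was the strong one, and both others were close to the list median of 63.3.

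The strong GATA2 peak (chr3:128207478-128208850) was 1373 bp wide, the widest of the peaks near GATA genes, and lay 3180 to 4552 bp past the first gene start. It ranked 707 in the BMP4 list and 246 among BMP4 peaks without a partner. The peak before it along the gene (chr3:128210828-128211566) was 739 bp wide and lay 464 to 1202 bp past the start. The peak after it (chr3:128206592-128207188) was 597 bp wide and lay 4842 to 5438 bp past the start. Gaps of 1977 and 289 bp separated the 3 peaks, which together spanned 4975 bp. In contrast to GATA3, no peak lay over the first start of the gene.

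By distance, all 3 GATA2 peaks fell in intron 1 of the main transcript, between exon 1, which ends 302 bases past the start, and exon 2, which begins at 6125. The inner RefSeq start at 4671 bases lay between the strong peak, 119 bases away, and the weaker one, 171 bases away. Other GENCODE transcripts have exons there. The strong peak overlapped 239 exonic bases of ENST00000696653.1 and 78 of ENST00000696661.1. A further transcript, ENST00000487848.6, begins at the inner start, and its exons overlapped the weaker peak by 159 and 8 bases. The antisense gene GATA2-AS1 overlapped the peak nearest to the first start by its full 739 bases and the strong peak by 810 bases.

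The sequence before the inner GATA2 start was richer in these motifs than that before the first one. It held GTCT or its complement 5 times, GGCGCC 2 times in direct succession, and GGAGCC once. At least 5 GTCT matches were found in 2.52% of all start windows and at least 2 GGCGCC matches in 3.08%. By distance, 132 of the 250 bases lay under the strong peak, and with them 5 of the 8 marked matches. The other 3 matches lay outside or across its edge, which passes through the pair of GGCGCC matches. The place of this edge depends on the shift of the gene start, which was not measured, so the count of 5 is not firm. The 250 bases before the first GATA2 start held none of the 3 motifs and lay under no peak. Both windows were rich in G and C, with 71.2% before the inner and 72.8% before the first start.

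The untreated peak near GATA2 (chr3:128287505-128288106) was 602 bp wide with a score of 63.5, and ranked 2399 of 5203. It lay 75.5 kb upstream of the gene, and the nearest BMP4 peak was 75.9 kb away. This peak was therefore far from the BMP4 peaks, and its score was slightly above the median of its own list, 61.7, with 53.9% of that list lower. Tiles as long as the GATA2 window (214 kb) held at least 3 BMP4 peaks in 3.17% of 14471 cases and at least 1 untreated peak in 24.1%. On chromosome 3 there were 292 untreated and 532 BMP4 peaks.

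GATA4, a regulator of heart and endoderm that the study followed as a differentiation marker, had 1 weak peak in BMP4-treated cells. Its gene body spans chr8:11561717-11617509 (hg19, plus strand). The peak (chr8:11557618-11558314) was 697 bp wide with a score of 73.8 and ranked 2668 in the BMP4 list. It lay 4099 to 3403 bp upstream of the start used here. Some GENCODE transcripts of GATA4 begin 27.2 kb further upstream, and by distance an exon of these overlapped the peak by 268 bases, so whether it lies before or within the gene depends on the transcript. The nearest untreated peak was 373 kb from the gene body. In tiles as long as the GATA4 window (256 kb), at least 1 BMP4 peak was found in 40.9% of 12095, at least 1 untreated peak in 27.7%, and at least 1 BMP4 but no untreated peak in 25.7%.

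GATA6, which acts in endoderm and heart, also had 1 weak BMP4 peak, and this one was not near the start. The gene body spans chr18:19749404-19782491 (hg19, plus strand). The peak (chr18:19811715-19812523) was 809 bp wide with a score of 70.5, ranked 2948, and lay 29.2 kb past the end of the gene. The nearest untreated peak was 187 kb away from the gene body, with a score of 53.7. In tiles as long as the GATA6 window (233 kb), 38.3% of 13275 held at least 1 BMP4 peak, 25.7% at least 1 untreated peak, and 24.9% at least 1 BMP4 but no untreated peak. For both GATA4 and GATA6, then, a BMP4 peak without an untreated peak was no rare pattern among tiles of that length. The 250 bases before the GATA6 start held the same number of each motif as those before the main GATA3 start, namely GTCT once, GGCGCC once and GGAGCC once, but lay under no peak. This window also overlaps exons of the antisense gene GATA6-AS1.

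Across the 4 genes, the BMP4 peaks ranged in score from 50.1 to 369 with a median of 115 (order-statistic 95% interval 59 to 254, n = 10 peaks), beside a median of 63.3 in the whole list. The interval included the list median, and it treats the 10 peaks as independent although 5 lay at GATA3 and 3 at GATA2. No peak scored between 73.8 and 156, where the median of the 10 peaks lies. A score of at least 100 was reached by 5 of the 10 peaks, against 20.2% of all BMP4 peaks and 13.6% of those without an untreated partner. Of these 5 peaks, 4 were at GATA3 and 1 at GATA2, and several share 1 locus, so they are not independent. The median fell to 72.2 when peaks within 200 kb were taken. Their widths ranged from 578 to 1373 bp with a median of 876 bp, beside 674 bp in the list, and 8 of the 10 were wider than the list median. In position, 6 of the 10 touched the body of a GATA gene and 9 lay within 5 kb of one, the exception being that of GATA6. The share of the whole BMP4 list this close to any gene body was not computed, so these counts describe position only.

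**Figure D4:**
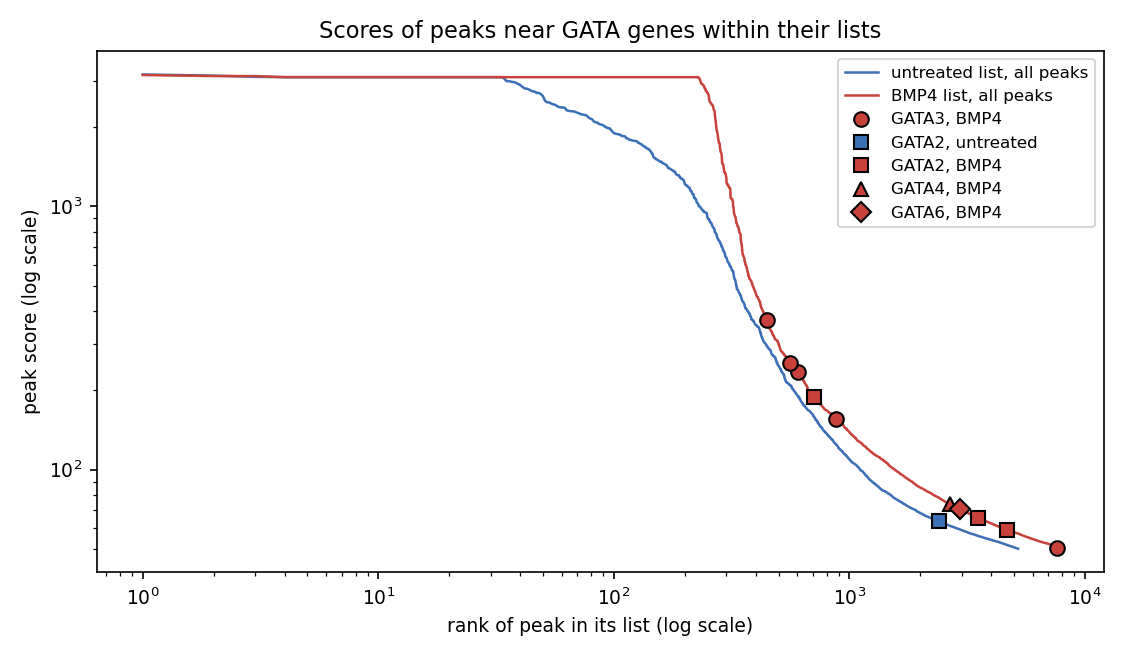
Score of each peak (vertical axis, log scale) against its rank in its list (horizontal axis, log scale) for all untreated (blue line) and BMP4 peaks (red line), with the peaks within 100 kb of a GATA gene as symbols. The 4 strong GATA3 peaks and 1 GATA2 peak lie at ranks 445 to 878 of the BMP4 list, and the other 5 BMP4 peaks at ranks 2668 to 7634.

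At the 100 kb limit itself, the outermost peaks inside were the untreated GATA2 peak at 75.5 kb and the GATA6 peak at 29.2 kb. Just outside, between 100 and 200 kb, lay 4 BMP4 peaks and 1 untreated peak. The BMP4 peaks were at GATA2 (130 kb from the gene body with a score of 53.0, and 187 kb with a score of 140), at GATA4 (170 kb, score 51.5) and at GATA3 (196 kb, score 54.0). The untreated peak was at GATA6 (187 kb, score 53.7). None of them had a partner in the other list.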

How the data were processed

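SMAD1 ChIP-seq of untreated and BMP4-treated H1 hESCs was analysed from the 2 peak lists that the authors deposited, in which each peak has a position and a score. The authors' methods give alignment to hg19 with BWA 0.7.5a, merging of replicate ChIP and replicate input samples, and peak calls from MACS 1.4.2 under its defaults. The 2 input samples were not analysed on their own. The authors found nonspecific enrichment at transfer RNA genes, but all deposited peaks were kept here.

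BED starts were raised by 1 to count bases from 1. Gene bodies were fixed in hg19, and a partner was an overlap of at least 1 bp. The deposited score rises with depth and was compared within a list. Without read counts, precision is unknown, and intervals cover the number of peaks alone. The code for overlaps, runs and tiles was checked on simulated lists with known answers, which gave no test of the data. Tiles ran from the first base to the last peak of each chromosome. Promoters came from RefSeq (GRCh38.p14), where 3 of the 4 genes were matched, and transcripts from GENCODE v44. The named genes were the 4 GATA genes with every peak within 100 kb. Genes, motifs and limits were chosen with earlier results of these data known, and the runs after the peaks had been seen. Calculations used Python 3.11.15, numpy 2.4.6, pandas 2.3.3, scipy 1.17.1 and matplotlib 3.10.9.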

Additional observations from a re-analysis of the deposited data

How the results depend on the processing

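Counts of peaks, peaks with a partner and median scores were recomputed under the distance limits, overlap rules and score limits that apply to each, as 66 values, of which 13 moved (a count by over 1.5 times, the BMP4 median beyond its interval, or any change of the untreated median, which rests on 1 peak). With a limit of 50 kb there were 0 untreated peaks and 10 BMP4 peaks. With 200 kb there were 2 untreated peaks, with a median score of 58.6, and 14 BMP4 peaks. A minimum score of 100 left 0 untreated and 5 BMP4 peaks, 4 of them at GATA3. These changes follow from the limits themselves. With the BMP4 list shortened to 5203 peaks, 9 BMP4 peaks were left. The number of peaks with a partner was 0 in both lists under every alternative run for it, which were the 50 and 200 kb limits, the minimum score of 100, the shortened list, a required overlap of 50% of each peak, and partners allowed up to 1 kb apart. For peaks within 100 kb the absence of partners was fixed in advance, since the nearest peak of the other list was at least 75.9 kb away. No median could be given for untreated peaks within 50 kb, where there were none. No paired analysis was possible because replicates were merged into 1 list per condition, which leaves nothing to pair. Without read counts, a site with a score under 50 in untreated cells cannot be told from one without binding, and occupancy there was not detectable from these lists.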
